A study of Homo sapiens with 12 samples.

Results

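The sine oculis homeobox genes, SIX2, SIX4 and SIX5 among them, encode transcription factors, and the eyes absent genes (EYA1 to EYA4) encode their coactivators. The 7 genes described here, SIX2, SIX4, SIX5, EYA1, EYA2, EYA3 and EYA4, were picked from the gene families by symbol, out of 60664 gene identifiers in the table, because SIX2 was abundant in MHCC-97H. The difference in SIX2 between the lines is therefore a description and was not tested. RNA sequencing was done on 12 libraries of 2 human hepatoma lines, 3 in each of 4 groups: MHCC-97H with si-CENPU, MHCC-97H with si-NC, Huh-7 with si-CENPU and Huh-7 with si-NC. Si-CENPU is a small interfering RNA against CENPU, which encodes a centromere protein, and si-NC is the control small interfering RNA, whose libraries carry the genotype label WT. No time after transfection is given in the labels. Nor do they say whether libraries of one group were separate cultures, and the p-values therefore measure the spread between these libraries, which may be technical. The values are TPM, a level scaled to transcript length and to the library's total, so they can be set side by side between genes.

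The sine oculis homeobox proteins bind DNA through a homeodomain and bind EYA proteins through a conserved domain beside it. EYA proteins do not bind DNA themselves. They act as coactivators and also carry a protein phosphatase domain. The circuit, together with PAX and DACH proteins, was worked out in the eye of Drosophila, where sine oculis and eyes absent are the founding genes. In mammals it acts in the embryonic kidney, ear, muscle and craniofacial tissue, and SIX2 in particular keeps nephron progenitors undifferentiated.

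CENPU, the targeted gene, was listed at 0.22, 0.45 and 0.24 TPM in MHCC-97H with si-CENPU, against 1.17, 0.83 and 0.89 TPM with si-NC. In Huh-7 it was listed at 0.17, 0.11 and 0.45 TPM with si-CENPU, against 0.56, 0.84 and 0.53 TPM with si-NC. The groups did not overlap in either line, and the exact two-sided permutation p was 0.1 in each, the smallest that 3 libraries against 3 can give. Of 12 hepatocyte markers, none averaged 1 TPM or more in MHCC-97H and 11 did in Huh-7, and their summed level was 0.77 to 1.82 TPM in MHCC-97H and 6671 to 7597 TPM in Huh-7. APOB and APOH, which encode proteins that hepatocytes secrete, were the 2 of the 12 listed at 0 in all 6 MHCC-97H libraries. Hepatocyte markers were thus low or listed at 0 in the libraries labelled MHCC-97H, and the identity of these libraries was not tested. Of 14 measured markers of other cell types, 4 averaged 1 TPM or more in MHCC-97H and 5 in Huh-7, with sums of 532 to 617 TPM in MHCC-97H and 241 to 289 TPM in Huh-7. KRT7, a keratin of ductal and other simple epithelia, made up most of the MHCC-97H sum and was at 0.04 to 0.44 TPM in Huh-7. KRT19 went the other way, at 0.07 to 0.46 TPM in MHCC-97H and 180.77 to 212.46 TPM in Huh-7, most of the Huh-7 sum. EPCAM was also higher in Huh-7, at 4.63 to 9.45 TPM against 0.62 to 2.07 TPM in MHCC-97H. The part of these marker differences in the results below was not tested. Replicate 1 of Huh-7 with si-NC stood apart, with the fewest genes above 0 (18639, against up to 20900 in the others) and the lowest mean correlation with the rest of its line (0.965). SIX2, SIX5, EYA1, EYA3 and EYA4 were each lowest of their group there, and without it the si-CENPU difference of SIX5 in Huh-7, 0.03 on the log2(TPM + 1) scale, was −0.04. In Huh-7 genes that dividing cells need were also near 0, HDAC1 among them at 0 to 0.07 TPM, against 18.29 to 29 TPM in MHCC-97H (HDAC1 was chosen after its values were seen), so a value at 0 is given as listed at 0.

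SIX2 (ENSG00000170577) lies on the minus strand of chromosome 2 at 45005161 to 45009430 in GRCh38. It was listed at 37.40, 37.26 and 35.33 TPM in MHCC-97H with si-CENPU, against 32.49, 34.46 and 32.17 TPM with si-NC. The Huh-7 libraries were listed at 0.51, 0.44 and 0.48 TPM with si-CENPU, against 0.15, 0.44 and 0.40 TPM with si-NC. All 6 MHCC-97H libraries were far above all 6 Huh-7 libraries, and the spread within each line was small beside the gap. The ratio of means was 76.9 with si-CENPU and 100.1 with si-NC, MHCC-97H over Huh-7. SIX2 ranked between 1714 and 2014 from the top of the genes above 0 in MHCC-97H (percentile 90.0 to 91.0), and at percentile 22.4 to 42.4 in Huh-7. Across the 6 libraries of each line, SIX2 averaged 34.9 ± 2.26 TPM in MHCC-97H and 0.403 ± 0.130 TPM in Huh-7 (SD, n = 6 each).

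**Figure D1:**
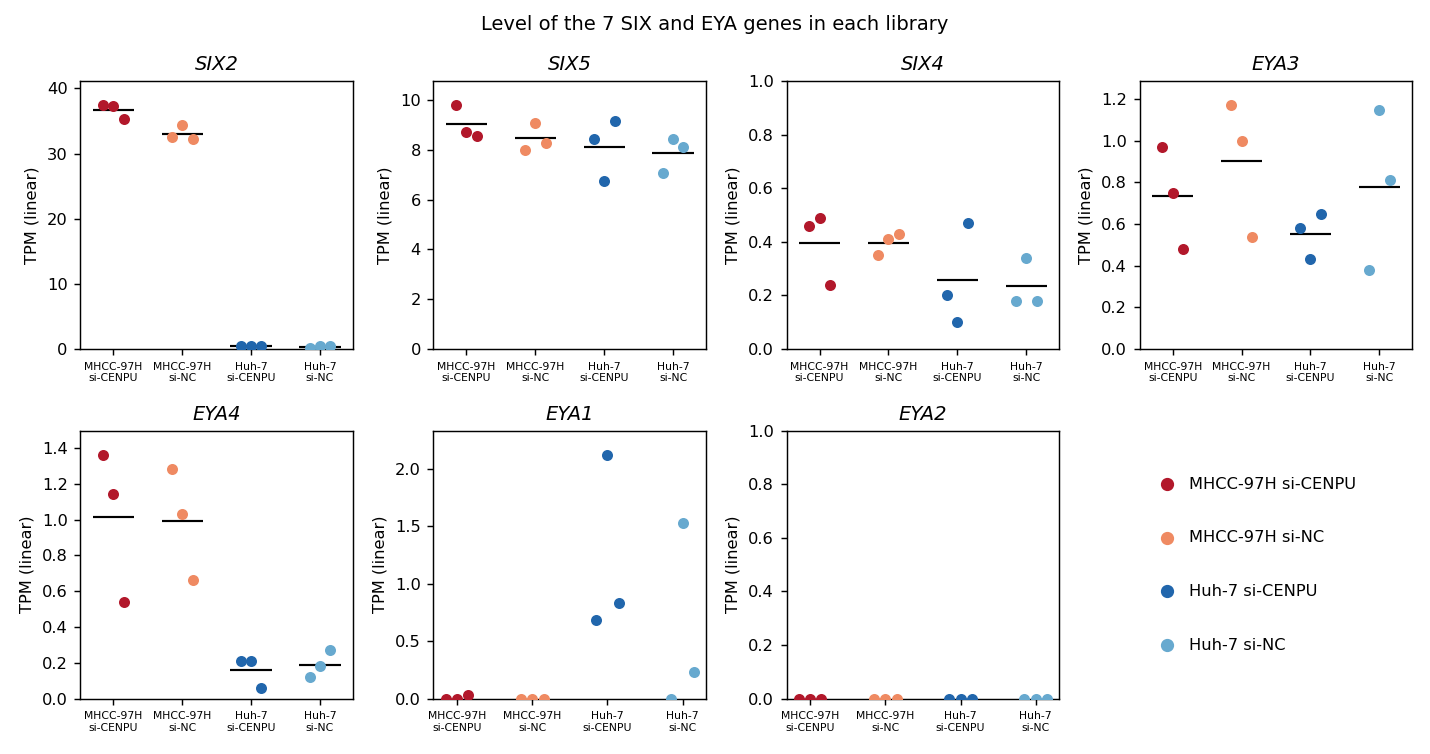
TPM (linear axis) of each of the 7 genes in every library, by group, with the group mean as a black bar except for EYA1 and EYA2. SIX2 sits at 32.17 to 37.40 TPM in MHCC-97H and at 0.15 to 0.51 TPM in Huh-7, while SIX5 is at 6.74 to 9.79 TPM in all 12 libraries and EYA2 is listed at 0 in all.

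The start of SIX2 is shown because this member sets the family's level in MHCC-97H, and the start of SIX6, a relative listed at 0 in all 12 libraries, because it shares runs of letters with it. The sequences are RefSeq windows on GRCh38.p14, each within 250 bases before to 50 bases after the start, written 5′ to 3′ on the gene's strand, and 4 of the 7 members matched the table (SIX2, SIX4, EYA3 and EYA4). Capitals mark CCAAT (or ATTGG, its reverse complement) and the 2 runs shared by SIX2 and SIX6. The SIX4 and EYA3 stretches, the parts around their CCAAT letters, are given for comparison. SIX2 is the minus strand of chr2:45009403-45009702, SIX6 the plus strand of chr14:60509068-60509158, SIX4 the minus strand of chr14:60724356-60724420 and EYA3 the minus strand of chr1:28088561-28088617.
SIX2: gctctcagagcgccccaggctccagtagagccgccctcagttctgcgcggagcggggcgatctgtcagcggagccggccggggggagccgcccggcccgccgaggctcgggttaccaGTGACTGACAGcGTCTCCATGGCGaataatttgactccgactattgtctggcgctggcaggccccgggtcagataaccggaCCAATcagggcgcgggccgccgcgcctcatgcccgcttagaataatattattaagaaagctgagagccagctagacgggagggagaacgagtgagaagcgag
SIX6: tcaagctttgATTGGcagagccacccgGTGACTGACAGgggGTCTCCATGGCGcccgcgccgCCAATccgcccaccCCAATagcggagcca
SIX4: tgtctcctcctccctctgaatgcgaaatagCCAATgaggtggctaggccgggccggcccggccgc
EYA3: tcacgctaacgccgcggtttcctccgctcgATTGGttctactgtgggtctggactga

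Motifs were searched on both strands in 35116 windows of 300 bases. CCAAT was in 34.6% of all windows, once each in SIX2, SIX4 and EYA3, not in EYA4 and 3 times in SIX6. It begins 52 bases before the start in SIX2 and 39 in SIX4, and as ATTGG 23 bases after the start in EYA3. TATAAA, the TATA box letters, was in 11.5% of windows and in none of these. TCAGGTTTC, the MEF3 letters that proteins of this family are known to bind, was in 0.362% of windows and in none of these. The runs shared by SIX2 and SIX6 were chosen after the sequences were seen. GTGACTGACAG, of 11 bases, was in 23 windows (0.0655%) and GTCTCCATGGCG, of 12 bases, in 16 windows (0.0456%). They stand in the same order in both genes, 1 base apart in SIX2 and 3 bases apart in SIX6, and begin 133 and 121 bases before the start in SIX2 and 51 and 37 bases before it in SIX6. A match of letters is not a binding site. The GC content of the whole windows was 64.0% in SIX2, 57.7% in SIX4, 61.7% in EYA3 and 71.7% in EYA4, with 29, 14, 25 and 39 CpG, and the medians of all windows were 58.7% and 14.

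With si-NC, SIX2 was higher in MHCC-97H by 4.68 on the log2(TPM + 1) scale, which understates differences of low genes. Most genes ran the same way, since the median of the 11088 genes with a mean of at least 1 TPM was 0.49. Relative to that median SIX2 was 4.19 higher, and after trimmed-mean scaling of the libraries, which put the median at 0.00, it was 4.29 higher. The difference stood at percentile 98.6 of all tested genes. Of those genes 50.1% were called higher in MHCC-97H and 22.9% lower (limma, adjusted p below 0.05), and 42.2% had 6 MHCC-97H libraries all above the 6 of Huh-7 while 20.8% had them all below. Scaling changes this split: trimmed-mean scaling called 3715 higher and 3910 lower, quantile normalization 4340 and 3522, and the unscaled values 5557 and 2542. Of the 7 members SIX2 and EYA4 had 6 libraries per line that did not overlap, both higher in MHCC-97H. Over the si-NC libraries alone SIX2, SIX4 and EYA4 did not overlap, all higher in MHCC-97H, where 49.6% of tested genes did so in that direction and 23.4% in the other. Nothing is read from these counts because SIX2 was chosen on this contrast.

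SIX5 (ENSG00000177045; minus strand of chromosome 19, 45764785 to 45769226) lies beside DMPK, the gene whose repeat expansion causes myotonic dystrophy. It was listed at 9.79, 8.73 and 8.55 TPM in MHCC-97H with si-CENPU, against 8.01, 9.09 and 8.29 TPM with si-NC. Levels in Huh-7 were listed at 8.45, 6.74 and 9.17 TPM with si-CENPU, against 7.08, 8.45 and 8.12 TPM with si-NC. The groups of each line overlapped, and so did the lines with the same small interfering RNA. MHCC-97H with si-CENPU lay above Huh-7 with si-NC. The difference between the lines with si-NC was 0.09, which is −0.40 relative to the median of all genes and −0.49 after trimmed-mean scaling, so its direction turns with the scaling. An unnamed transcript on the opposite strand (ENSG00000259605) covers SIX5, at 3.11 to 5.42 TPM in MHCC-97H and 3.81 to 5.14 TPM in Huh-7. Whether the counting used strand is not stated, and reads of this pair cannot be told apart. DM1-AS also overlaps it and stayed at or below 0.82 TPM.

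SIX4 (ENSG00000100625; minus strand of chromosome 14, 60709528 to 60724348), which acts in muscle and kidney development, was low throughout. It was listed at 0.46, 0.49 and 0.24 TPM in MHCC-97H with si-CENPU, against 0.35, 0.41 and 0.43 TPM with si-NC. Huh-7 libraries were listed at 0.20, 0.10 and 0.47 TPM with si-CENPU, against 0.18, 0.34 and 0.18 TPM with si-NC. The lines overlapped, and the difference with si-NC was 0.18, which is −0.31 relative to the median of all genes and 0.036 after trimmed-mean scaling. SIX3, a relative that acts in forebrain and eye, was listed at 0 in MHCC-97H and at 0 to 0.03 TPM in Huh-7.

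EYA4 (ENSG00000112319; plus strand of chromosome 6, 133240598 to 133532120), a gene of hereditary hearing loss and heart muscle disease, was listed at 1.36, 1.14 and 0.54 TPM in MHCC-97H with si-CENPU, against 1.28, 1.03 and 0.66 TPM with si-NC. In Huh-7 it was listed at 0.21, 0.21 and 0.06 TPM with si-CENPU, against 0.12, 0.18 and 0.27 TPM with si-NC. Every MHCC-97H library was above every Huh-7 library, and the ratio of means was 6.33 with si-CENPU and 5.21 with si-NC. The difference with si-NC was 0.73, which is 0.24 relative to the median of all genes and 0.52 after trimmed-mean scaling. EYA4 is overlapped at its end by the antisense gene TARID, listed at 0 in all libraries with si-NC and in Huh-7 with si-CENPU, and at up to 1.03 TPM in MHCC-97H with si-CENPU, where reads of the pair cannot be told apart.

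EYA3 (ENSG00000158161; minus strand of chromosome 1, 27970344 to 28088696), the member of the family found in many tissues, was listed at 0.97, 0.75 and 0.48 TPM in MHCC-97H with si-CENPU, against 1.17, 1 and 0.54 TPM with si-NC. In Huh-7 it was listed at 0.58, 0.43 and 0.65 TPM with si-CENPU, against 0.38, 1.15 and 0.81 TPM with si-NC. The lines overlapped, and the difference with si-NC was 0.11 unscaled and −0.17 after trimmed-mean scaling, so its direction turns too. EYA3 and EYA4 were both lowest in replicate 3 of each MHCC-97H group. In those libraries the deviation from the line's mean correlated with transcript GC content across genes (Spearman rho 0.295 with si-CENPU and 0.456 with si-NC). Other libraries showed such a correlation too. The strongest rho was −0.516, in replicate 1 of MHCC-97H with si-NC, where EYA3 and EYA4 were highest of their group. In Huh-7 with si-NC rho was 0.325 in replicate 1 and −0.321 in replicate 2. The transcripts of EYA3 and EYA4 are 46.3% and 40.8% GC, and the part of GC content in their values was not tested.

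EYA1 (ENSG00000104313, on chromosome 8), the gene of branchio-oto-renal syndrome, was listed at 0, 0 and 0.03 TPM in MHCC-97H with si-CENPU, against 0 in all 3 libraries with si-NC. In Huh-7 it was listed at 0.68, 2.12 and 0.83 TPM with si-CENPU, against 0, 1.53 and 0.23 TPM with si-NC. It was above 0 in 1 MHCC-97H library and in 5 Huh-7 libraries, and the si-CENPU and si-NC groups of each line overlapped. With si-CENPU the Huh-7 libraries were all above those of MHCC-97H. The Huh-7 library at 0 is replicate 1 of Huh-7 with si-NC. EYA2 (ENSG00000064655; plus strand of chromosome 20, 46894624 to 47188844) was listed at 0 in all 12 libraries.

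The make-up of the families differed between the lines. SIX2, SIX4 and SIX5 together summed to 40.9 to 47.7 TPM in MHCC-97H (median 44.0) and 7.28 to 10.1 TPM in Huh-7 (median 8.93). SIX2 held 78.4 to 80.2% of that sum in MHCC-97H and 2.02 to 6.04% in Huh-7, and SIX5 held 18.8 to 20.7% in MHCC-97H and 90.6 to 95.5% in Huh-7. The ratio of SIX2 to SIX5 was 3.79 to 4.27 in MHCC-97H and 0.0212 to 0.0653 in Huh-7. The EYA genes summed to 1.05 to 2.45 TPM in MHCC-97H (median 1.96) and 0.5 to 2.86 TPM in Huh-7 (median 1.51), which overlap. EYA4 held 50.7 to 60.3% of the EYA sum in MHCC-97H and 3.9 to 24% in Huh-7, EYA3 held 39.7 to 49.3% in MHCC-97H and 15.6 to 76.0% in Huh-7, and EYA1 held 0 to 2.86% in MHCC-97H and 0 to 76.8% in Huh-7. The ratio of the sum of SIX2, SIX4 and SIX5 to the EYA sum was 16.7 to 42.0 in MHCC-97H and 2.64 to 14.8 in Huh-7.

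**Figure D2:**
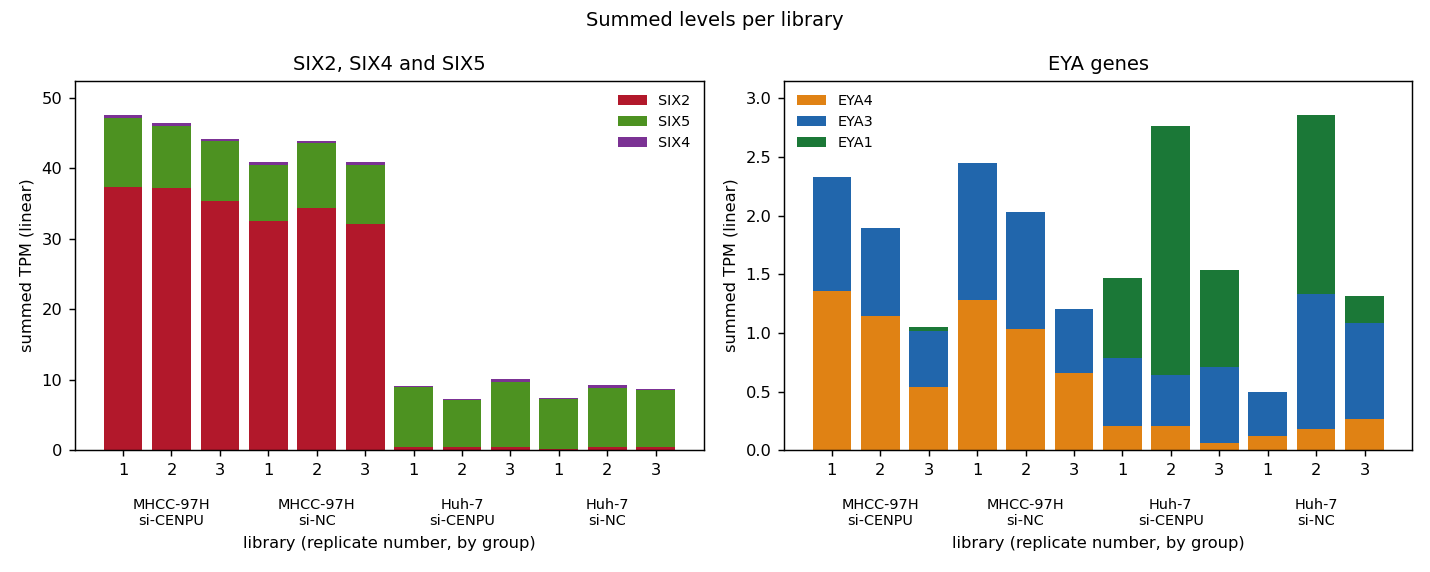
Summed TPM (linear axes) of SIX2, SIX4 and SIX5 and of the EYA genes in every library, stacked by gene, with libraries ordered by group and replicate number. SIX2 makes up most of the sum of 40.9 to 47.7 TPM in MHCC-97H and SIX5 most of the 7.28 to 10.1 TPM in Huh-7, while the EYA sums of the lines overlap.

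In MHCC-97H SIX2 came first and SIX5 next, each apart from the rest, then EYA4 and EYA3, whose libraries overlapped, then SIX4, and last EYA1 and EYA2, apart from SIX4. With si-CENPU the libraries of SIX4 reached those of EYA3, and with si-NC they lay below them. In Huh-7 SIX5 came first, and SIX2, SIX4, EYA1, EYA3 and EYA4 followed without a gap wider than their spread. Among 79 homeobox genes outside the HOX clusters, the members counted, SIX2 ranked 3 in MHCC-97H by mean TPM, after PITX1 (110 ± 18.2) and CUX1 (103 ± 6.88; SD, n = 6 each) and ahead of TGIF1 (14.6 ± 2.79). SIX5 ranked 5 in MHCC-97H and 7 in Huh-7, and SIX2 ranked 31 in Huh-7. Homeobox genes ahead of SIX5 in Huh-7 included DLX1 (26.7 ± 2.57), CDX2 (23.4 ± 3.11), PITX1 (18.5 ± 2.59), CUX1 (17.8 ± 1.96) and TGIF1 (15.6 ± 3.76 TPM).

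After si-CENPU, SIX2 was at 36.7 ± 1.16 TPM in MHCC-97H, against 33.0 ± 1.24 with si-NC (SD, n = 3 each). The libraries of the groups did not overlap, as was so for 3.19% of all tested genes in that direction and 3.76% in the other, but the test across genes did not call it (log2 difference 0.15, SE 0.108, limma adjusted p = 1, with a 95% interval of −0.09 to 0.38). In Huh-7 SIX2 was at 0.477 ± 0.0351 TPM with si-CENPU, against 0.330 ± 0.157 with si-NC, and the libraries touched at 0.44 TPM, where 3.79% of tested genes had si-CENPU all above and 3.86% all below (log2 difference 0.16, SE 0.108, limma adjusted p = 1, 95% interval −0.08 to 0.40). The difference between these responses was −0.01 (95% interval −0.35 to 0.33, limma adjusted p = 0.999). The interval in MHCC-97H runs from 0.938-fold to 1.31-fold. In Huh-7 SIX2 was below 1 TPM and entered the fit only through its level in MHCC-97H, and at such levels the value depends on the pseudocount. With a pseudocount of 0.1 in place of 1 the Huh-7 difference was 0.50 and the difference between the responses −0.35, neither past the threshold on limma's adjusted p. Without replicate 1 of Huh-7 with si-NC the Huh-7 difference was 0.06.

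SIX5 averaged 9.02 ± 0.670 TPM with si-CENPU, against 8.46 ± 0.560 TPM with si-NC in MHCC-97H, and 8.12 ± 1.25 TPM with si-CENPU, against 7.88 ± 0.715 TPM with si-NC in Huh-7 (SD, n = 3 each). Its log2 differences were 0.08 in MHCC-97H (95% interval −0.19 to 0.35) and 0.03 in Huh-7 (95% interval −0.24 to 0.30), both with a limma adjusted p of 1. The difference of its responses was 0.05 (95% interval −0.33 to 0.44, limma adjusted p = 0.999). The background is low: limma called 0.00902% of tested genes higher and 0% lower with si-CENPU in MHCC-97H, with 379 genes at an unadjusted p below 0.05, and the same percentages in Huh-7, with 507 genes. For the difference of responses it called 0% higher and 0.00902% lower.

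The other 5 members were too low for the test across genes. SIX2 passed the filter through MHCC-97H alone, so only 2 of 7 members were tested there. Exact two-sided permutation tests were run on 4 members in each line, 8 tests, whose smallest possible p is 0.1. SIX4 differed by −0.0043 in MHCC-97H (exact p = 1) and 0.019 in Huh-7 (exact p = 0.8). EYA3 differed by −0.13 in MHCC-97H and −0.18 in Huh-7 (exact p = 0.5 in each). EYA4 differed by 0.0059 in MHCC-97H (exact p = 1) and −0.038 in Huh-7 (exact p = 0.7). EYA1 differed by 0.014 in MHCC-97H (exact p = 1) and 0.54 in Huh-7 (exact p = 0.4), a value that was 1.63 with a pseudocount of 0.1, and 0.26 to 0.94 when 1 library was left out, with 0.26 without replicate 2 of Huh-7 with si-CENPU, 0.27 without replicate 1 of Huh-7 with si-NC and 0.94 without replicate 2 of Huh-7 with si-NC. All adjusted p were 1, all groups overlapped, and a change in a gene near 0 would not be detectable at this level.

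**Figure D3:**
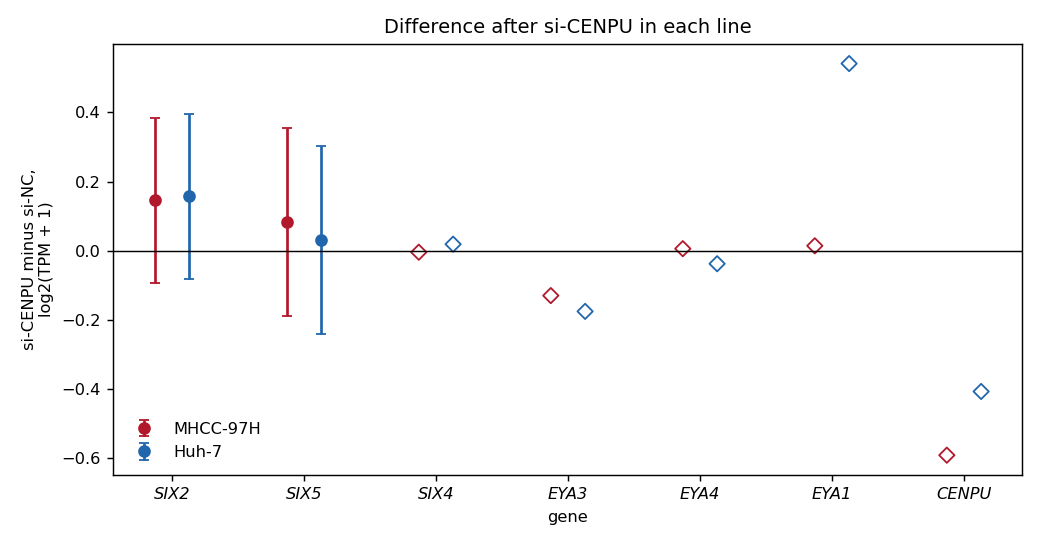
Difference of log2(TPM + 1) between si-CENPU and si-NC in each line (y axis, 0 marks no difference). Filled circles with 95% intervals are the members fitted with limma, SIX2 and SIX5, and open diamonds without an interval are differences of means for members below 1 TPM and for CENPU; the intervals of SIX2 and SIX5 include 0, and CENPU is lowest in both lines (−0.59 in MHCC-97H and −0.41 in Huh-7).

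Neighbouring genes were read for the same libraries. SIX2 has SIX3 at 59084 bases and SRBD1 at 379250 bases as nearest protein-coding genes, and SRBD1 was at 0.18 to 0.48 TPM in MHCC-97H and 0.16 to 0.39 TPM in Huh-7. Within 200 kb of SIX2 the other annotated genes stayed at or below 0.41 TPM, except an unnamed RNA (ENSG00000274547) that reached 8.34 TPM in 1 MHCC-97H library. SIX5 has MEIOSIN 251 bases and DMPK 491 bases away. DMPK was at 28.8 ± 3.06 TPM in MHCC-97H and 7.13 ± 1.08 TPM in Huh-7 with si-NC (SD, n = 3 each; log2 difference 1.88, limma adjusted p = 1.1e-07), while SIX5 beside it overlapped between the lines. EYA3 has XKR8 at 2248 bases, a scramblase gene listed at 0 to 0.02 TPM in MHCC-97H and 15.9 to 18.68 TPM in Huh-7, while EYA3 overlapped between the lines. SIX4 has MNAT1, a subunit of the CDK-activating kinase, at 10394 bases, at 3.51 to 5.62 TPM in MHCC-97H and 0.81 to 3.39 TPM in Huh-7.

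**Figure D4:**
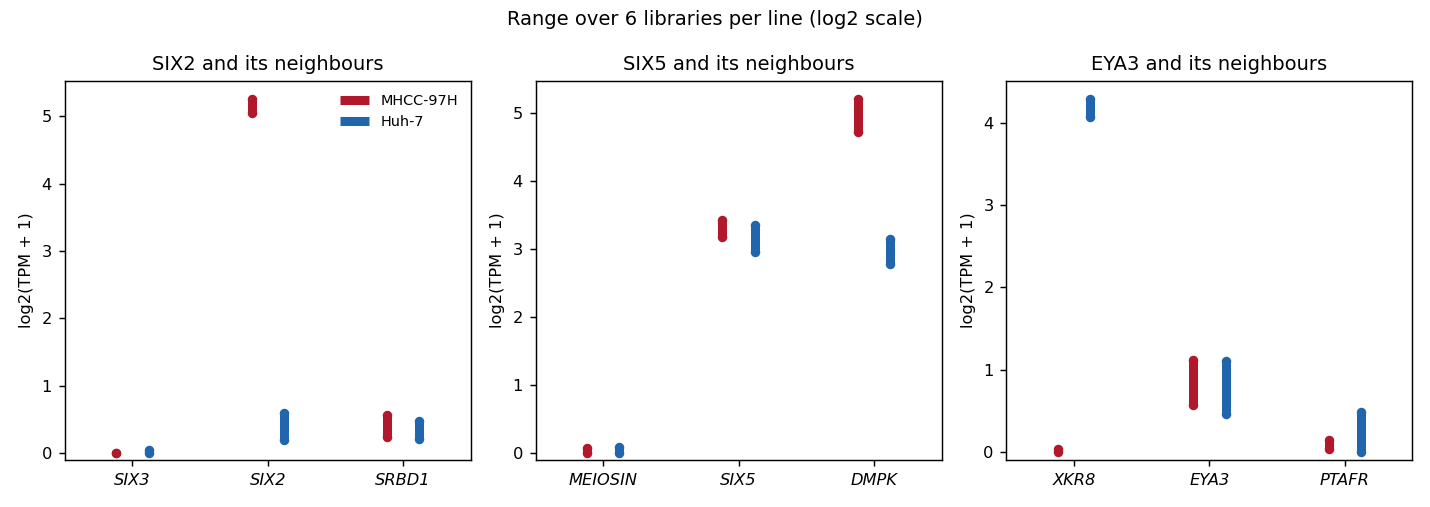
Ranges of log2(TPM + 1) over 6 libraries per line for SIX2, SIX5 and EYA3 and their nearest protein-coding genes. SIX2 is separated between the lines while SIX3 and SRBD1 are near 0 in both, and DMPK and XKR8 are separated while SIX5 and EYA3 overlap.

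Genes whose pattern over the 12 libraries is most like that of SIX2, by the root mean square difference of centred log2(TPM + 1) values among 11086 genes, were KIF26A (0.106), CLDN4 (0.109), LINC03057 (0.117), AQP3 (0.122) and COTL1 (0.140). CLDN4, a tight junction protein, was at 24.65 to 27.55 TPM in MHCC-97H and 0 to 0.29 TPM in Huh-7. AQP3, a water channel, was at 86.02 to 113.88 TPM in MHCC-97H and 1.9 to 3.49 TPM in Huh-7. KIF26A, a kinesin family gene, was at 22.55 to 28.61 TPM in MHCC-97H and 0 to 0.03 TPM in Huh-7. All 5 had lines that did not overlap, and the 12 libraries share that split. HDAC1, named above for its values near 0 in Huh-7, ranked 8 (0.160). Whether the low SIX2 values in Huh-7 share a source with those of HDAC1 was not tested.

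The partners of the circuit were read from lists. Of 18 PAX, DACH, SKI and TLE genes, 8 were tested, none was called after si-CENPU in either line, and between lines with si-NC 3 of the 8 were called higher in MHCC-97H and 2 lower (median 0.18, against 0.49 for all genes), where 50.1% of all tested genes were called higher and 22.9% lower. TLE1 to TLE4 encode Groucho-type corepressors. TLE3 was 7.32 ± 1.12 TPM in MHCC-97H and 1.06 ± 0.483 TPM in Huh-7, and TLE4 was 2.66 ± 0.235 TPM in MHCC-97H and 0.887 ± 0.172 TPM in Huh-7. TLE2 was 0.660 ± 0.113 TPM in MHCC-97H and 8.70 ± 1.03 TPM in Huh-7, and TLE1 was 6.45 ± 2.04 TPM in MHCC-97H and 19.4 ± 3.93 TPM in Huh-7 (SD, n = 3 each, with a limma adjusted p of at most 7.0e-05 for TLE1 and TLE3). TLE2 and TLE4 each passed the filter through 1 line alone, which set their direction, so their differences between the lines are descriptions. After si-CENPU the TLE gene with the smallest p was TLE5, at 316 ± 15.5 TPM against 250 ± 13.5 TPM with si-NC in MHCC-97H (log2 difference 0.34, limma adjusted p = 0.577), and at 216 ± 7.25 TPM against 183 ± 11 TPM with si-NC in Huh-7 (0.24, limma adjusted p = 0.861).

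Of 16 nephron progenitor and early nephron genes, among which SIX2 acts, HOXA11 and HOXC11 were the 2 tested. Both were higher in MHCC-97H with si-NC. HOXA11 was at 6.19 ± 1.22 TPM against 0.230 ± 0.0656 TPM in Huh-7 (log2 difference 2.54). It passed the filter through MHCC-97H alone, which set its direction, so its difference is a description. HOXC11 was at 9.80 ± 0.121 TPM against 0.863 ± 0.245 TPM in Huh-7 (2.54, limma adjusted p = 9.2e-09). Its mean over all Huh-7 libraries was 1.14 TPM. The other 14 were too low to be tested. Of these PAX8 was at 0.77 to 1.45 TPM in MHCC-97H and 0.03 to 0.55 TPM in Huh-7. SALL1 was listed at 0 in MHCC-97H and at 0.34 to 0.94 TPM in Huh-7, OSR1 at 0 to 0.02 TPM in MHCC-97H and 0.3 to 0.42 TPM in Huh-7, and GDNF at 0 in MHCC-97H and 0.12 to 0.18 TPM in Huh-7. CITED1 was at 0.07 to 0.54 TPM in MHCC-97H and 0 to 0.17 TPM in Huh-7. WT1 was at 0 to 0.05 TPM in MHCC-97H and 0 in Huh-7. PAX2 was at 0 in MHCC-97H and 0 to 0.02 TPM in Huh-7, and ITGA8 at 0 in both lines. PAX8 and the genes named after it up to here were chosen after their values were seen. The rest, LHX1, MEOX1, WNT4, FGF8, JAG1 and HOXD11, all averaged higher in MHCC-97H. LHX1 was at 0.05 to 0.44 TPM in MHCC-97H and 0 in Huh-7. MEOX1 was at 0.14 to 0.7 TPM in MHCC-97H and 0 to 0.12 TPM in Huh-7. For WNT4, FGF8, JAG1 and HOXD11 the libraries of the lines overlapped. After si-CENPU neither of the tested HOX genes passed. HOXA11 in MHCC-97H was at 5.64 ± 0.971 TPM against 6.19 ± 1.22 TPM with si-NC (limma adjusted p = 1), and HOXC11 in Huh-7 was at 1.42 ± 0.257 TPM against 0.863 ± 0.245 TPM with si-NC (limma adjusted p = 0.957).

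Of 21 reported targets of the family, 12 were tested, none was called after si-CENPU, and with si-NC 10 of the 12 were called higher in MHCC-97H and 2 lower, where 50.1% of all tested genes were called higher and 22.9% lower. The median was 1.26, against 0.49 for all genes, and the split over all genes moves with the scaling as given above. CCND1, a cell cycle cyclin, was at 29.1 ± 2.74 TPM in MHCC-97H and 0.603 ± 0.724 TPM in Huh-7 (4.32). MYC, a growth regulator, was at 82.5 ± 17.3 TPM in MHCC-97H and 3.87 ± 1.78 TPM in Huh-7 (4.14, limma adjusted p = 1.7e-06). PKM, a glycolytic enzyme, was at 417 ± 40.3 TPM in MHCC-97H and 127 ± 24.1 TPM in Huh-7 (1.72, limma adjusted p = 4.0e-06). SOX2, a stem cell factor, was lower in MHCC-97H, at 0 to 0.02 TPM in MHCC-97H and 27.49 to 37.01 TPM in Huh-7. CCND1 and SOX2 each passed the filter through 1 line alone, which set their direction, so their differences between the lines are descriptions. After si-CENPU the first by p were TGFBR1 in MHCC-97H, at 1.91 ± 0.610 TPM against 2.64 ± 0.191 TPM with si-NC (limma adjusted p = 1), and MYC in Huh-7, at 1.70 ± 1.36 TPM against 3.87 ± 1.78 TPM with si-NC (limma adjusted p = 1).

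Of 16 reported EYA substrates and partners, 15 were matched and 12 tested, none was called after si-CENPU, and with si-NC 7 of the 12 were called higher in MHCC-97H and 0 lower (median 0.99), where 50.1% of all tested genes were called higher and 22.9% lower. IRF3 was at 45.85 to 54.38 TPM in MHCC-97H and 0.07 to 0.13 TPM in Huh-7, and PLK1 at 65.54 to 72.48 TPM in MHCC-97H and 0 to 0.31 TPM in Huh-7. ABL1 was at 7.64 to 8.92 TPM in MHCC-97H and 0 to 0.05 TPM in Huh-7, and RPA2 at 12.42 to 19 TPM in MHCC-97H and 0 to 0.14 TPM in Huh-7 (with si-NC, n = 3 each). IRF3, PLK1, ABL1 and RPA2 each passed the filter through MHCC-97H alone, which set their direction, so their differences between the lines are descriptions. PLK1, a mitotic kinase, and RPA2, a replication protein, are used by all dividing cells, so their values near 0 in Huh-7 set a limit on reading this list. After si-CENPU the first by p were RPA2 in MHCC-97H (12.9 ± 2.62 TPM against 16.2 ± 3.40 TPM with si-NC, limma adjusted p = 1) and NOTCH1 in Huh-7 (0.713 ± 0.30 TPM against 2.22 ± 0.836 TPM with si-NC, limma adjusted p = 0.615). Of 74 other homeobox genes, 73 were matched and 23 tested, none was called after si-CENPU, and with si-NC 11 of the 23 were called higher and 7 lower in MHCC-97H (median 0.40), against 50.1% and 22.9% of all tested genes. CDX2, an intestinal factor, was listed at 0 in MHCC-97H with si-NC and at 20.53 to 24.86 TPM in Huh-7. DLX1 was at 0.52 to 0.77 TPM in MHCC-97H and 23.75 to 29.48 TPM in Huh-7. PBX4 was at 7.19 to 8.49 TPM in MHCC-97H and 0 to 0.09 TPM in Huh-7. CDX2, DLX1 and PBX4 each passed the filter through 1 line alone, which set their direction, so their differences between the lines are descriptions. PITX1 was the first by p after si-CENPU in MHCC-97H, at 126 ± 5.13 TPM against 93.8 ± 3.74 TPM with si-NC (0.42, limma adjusted p = 0.817). In Huh-7 the first was ADNP, listed at 0 to 0.1 TPM with si-CENPU, against 0.24 to 3.07 TPM with si-NC (limma adjusted p = 1).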

How the data were processed

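Gene levels were read from a table of TPM deposited by the authors, 1 column per library over 60664 Ensembl identifiers. HISAT2 and StringTie were used on the build GRCh38.p13, per the submitters' processing notes. Their versions, the annotation and any use of strand are not stated, and since TPM keeps no sequencing depth no counting interval is given. Groups came from the sample titles. Symbols matched 60447 identifiers. Coordinates and gene neighbours came from GENCODE release 29 on GRCh38, and promoter windows from RefSeq on GRCh38.p14.

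TPM was put on the log2(TPM + 1) scale. limma 3.58.1 (R 4.3.3), with moderated variances following a mean trend, was fitted to the 12 libraries as 4 groups for 11088 genes with a mean of at least 1 TPM, and p-values were adjusted by Benjamini-Hochberg over those genes. A gene averaging below 1 TPM in 1 line passed this filter through the other line alone, which set its direction between the lines. Counts of calls between the lines include such genes. Members below 1 TPM were compared by exact two-sided permutation of 3 libraries against 3 (Python 3.11.15), adjusted over 8 tests. Scripts were tested on simulated data. Named genes, besides the members and CENPU, were up to 4 tested genes of each list with the smallest adjusted p in each comparison, relatives from the same family, the nearest protein-coding gene on each side of each member, and the 5 genes most like SIX2. For si-CENPU the text prints the first by p of each list, a limit set after the values were seen, and every gene the rule gives entered the alternatives. Some genes the rule gives are not reported here. Members and lists were chosen with earlier results of these data known. Alternatives were another pseudocount, no filter or a stricter one, trimmed-mean scaling, quantile normalization, each line alone, a replicate block and leaving out each library.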

Additional observations from a re-analysis of the deposited data

Results flagged for a closer look

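TGIF2, a homeobox repressor of the TGF-beta pathway that is no member, differed in opposite directions in the lines with no overlap of libraries. It was at 3.42 ± 0.280 TPM with si-CENPU, against 4.30 ± 0.537 TPM with si-NC in MHCC-97H, and at 2.71 ± 0.224 TPM with si-CENPU, against 2.25 ± 0.0608 TPM with si-NC in Huh-7 (SD, n = 3 each). The difference of the responses was −0.45 on the log2 scale, which limma did not call (adjusted p = 0.999), and neither response passed its threshold (limma adjusted p = 1 in each line). It is listed because all 3 si-CENPU libraries were below those of si-NC in MHCC-97H and all 3 were above them in Huh-7. Of all tested genes 3.76% were so in MHCC-97H and 3.79% in Huh-7. The members and every named gene of the lists were looked through for opposite directions, and nothing is read from this pattern.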

How the results depend on the processing

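SIX2 and SIX5 were not called after si-CENPU under any alternative run, with a limma adjusted p of at least 0.740 for SIX2 in MHCC-97H and 0.647 in Huh-7. In MHCC-97H the count of genes called was 1, and 0 with a pseudocount of 0.1, with each line alone and with the replicate block, 7 with no filter and with quantile normalization, and 0 to 4 leaving out 1 library. In Huh-7 it was 1, and 11 with a pseudocount of 0.1, 4 with no filter, 0 with a mean of at least 5 TPM, each line alone or the replicate block, 3 with trimmed-mean scaling and quantile normalization, and 0 to 4 leaving out 1 library. For the difference of responses it was 1, and 0 with a pseudocount of 0.1 or 0.5, a mean of at least 5 TPM or the replicate block, 6 with no filter, 2 with trimmed-mean scaling, and 0 to 4 leaving out 1 library. Between lines with si-NC it was 8099 of 11088 tested genes, and 7465 to 8213 leaving out 1 library. It was 4405 of 5615 tested genes with a mean of at least 5 TPM and 11549 of 30267 with no filter. These filters left the same numbers of tested genes in the si-CENPU comparisons.

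Some differences changed sign, none of them called. SIX2 in the difference of responses was −0.35 with a pseudocount of 0.1, 0.031 with trimmed-mean scaling and −0.072 to 0.090 leaving out 1 library, SIX5 in Huh-7 was −0.052 to 0.15 and in the difference of responses −0.063 to 0.13. SIX4 in MHCC-97H was 0.0056 with trimmed-mean scaling and −0.053 to 0.079 leaving out 1 library, and in Huh-7 −0.0041 with a pseudocount of 0.1 and −0.10 to 0.11. EYA4 in MHCC-97H was −0.011 with a pseudocount of 0.1 and −0.12 to 0.19 leaving out 1 library, and in Huh-7 −0.080 to 0.026. HOXC11 in MHCC-97H was 0.045 with trimmed-mean scaling, 0.042 with quantile normalization and −0.051 to 0.028 leaving out 1 library, HOXA11 −0.25 to 0.00066 in MHCC-97H, and in Huh-7 −0.0011 with trimmed-mean scaling, −0.012 with quantile normalization and −0.040 to 0.036, and MDC1, at −0.36 in Huh-7, was −0.70 without si-NC replicate 1 and 0.059 without si-NC replicate 3. The cause was not tested. Over SIX4, EYA1, EYA3, EYA4, the list genes and the order of the members, 1119 values were computed under alternatives. Of these 1095 kept direction and side of the threshold, 23 reversed, all of them in the genes just given, and 1 moved, the order of the members by median in Huh-7 with si-NC. Many of the 1095 could not have reversed. A difference within a line stays the same with another filter, each line alone, the replicate block or a library of the other line left out. The order of the members was counted as kept with 5 of 7 members at the same rank, as in both si-CENPU groups. The exact tests of SIX4, EYA1, EYA3 and EYA4 cannot give a p below 0.1. Their side of the threshold was therefore fixed in advance, and only their direction could change.

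Deviations of same-numbered libraries correlated at −0.033, −0.091 and 0.134 in MHCC-97H for replicates 1, 2 and 3, and at −0.032, −0.091 and 0.028 in Huh-7. Since 1 of 6 such pairs, replicate 3 of MHCC-97H, was above 0.1, the numbers were not taken to pair the libraries. The replicate block gave 0 calls in each of the 3 si-CENPU comparisons. Not every library correlated best with its own number.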
